A study of Mus musculus with 7 samples.

Results

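The cells described here were 1351 B cells of the spleen library of run 2, out of 4353 cells in that library and 21763 cells in the 7 libraries of the series. A cell was taken as a B cell when the B-cell genes Cd79a, Cd79b, Ms4a1, Ebf1 and Ighd together held at least 4 UMIs, the T-cell genes Cd3d, Cd3e and Cd3g together held fewer than 2 UMIs, and mitochondrial genes held at most 5% of its UMIs. A UMI, or unique molecular identifier, tags 1 captured RNA molecule. These 8 genes and the mitochondrial share chose the cells, so their values are given as a description only. The B cells made up 31.0% of the cells of the library (exact 95% binomial interval 29.7 to 32.4) and held 38.3% of its UMIs. That share is one of cells after a sort and not of the spleen.

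RNA of single cells was measured with the 10X droplet method in sorted neutrophils of healthy, untreated male C57BL/6J mice, a common inbred strain, in 2 runs of 3 tissues each (spleen, blood and bone marrow), and a further library pooled 5 conditions of an inflammation experiment. Mice were 6 weeks old in run 1 and 8 weeks old in run 2, and each library of healthy tissue pooled 3 mice, the same ones for all tissues of a run. Live cells were sorted as positive for CD11b and Ly6G, surface proteins of neutrophils encoded by Itgam and Ly6g. The comparisons used run 2, with 1 library per tissue, because few B cells were found in run 1 and its tables hold fewer genes: no test was made between cell classes or tissues, no difference has a replicate check, intervals cover counting error only, and a fold of 2 is used below only to describe size.

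B cells carry an antigen receptor made of a heavy chain and a kappa or lambda light chain, held at the membrane with the signalling proteins CD79A and CD79B. In the spleen most are follicular B cells, which recirculate between lymphoid organs, and a smaller population, the marginal zone B cells, stays beside the blood sinuses and is known for high CD21, the product of Cr2. Activated B cells can enter germinal centres, where antibody genes are mutated and switched, or become plasma cells that secrete antibody joined by the J chain.

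The cells held a median of 1440 UMIs (622 to 17964) and 722 genes. In the same library 640 cells were marked by T-cell genes (median 2004 UMIs) and 1899 by neutrophil genes (median 768 UMIs). Genes of B cells that the rule did not use went with the label: Cd74 had a UMI in 99.8% of the B cells and 48.9% of the T cells, Igkc in 96.9% and 46.6%, and Ly6d, a surface protein of B cells, in 92.2% and 5.94%. The same rule found 285 of 3823 cells in bone marrow (7.45%) and 99 of 4653 in blood (2.13%) of run 2, and in run 1, where its genes were in part not used, it found 19, 6 and 11 cells in blood, bone marrow and spleen. Among the 4856 cells of the inflammation library it found 0, which allows a share of up to 0.0618% at 3 counts. The library shared between 1 and 30 cell barcodes with each of the others, and 1 to 8 of these belonged to its B cells.

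The rule cut through few cells. The 5 genes held a median of 12 UMIs in the B cells (4 to 59), and 981 of them had 10 or more. Among cells that met the other limits, 1921 had no UMI of the 5 genes, 241 had 1, 36 had 2 and 12 had 3, just outside the limit. Those 12 cells had median counts of 13.5 for Igkc, 43 for Cd74 and 3 for Ly6d. The 28 cells just inside, with 4 UMIs, had 11, 37.5 and 1, so the cells on both sides of the limit carried much the same B-cell RNA. A further 90 cells with 4 or more UMIs were left out for their mitochondrial share (median 5.80%). They too had B-cell RNA, with median counts of 14 for Igkc and 39 for Cd74. Another 14 cells with 4 or more UMIs were left out for their T-cell genes.

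**Figure D1:**
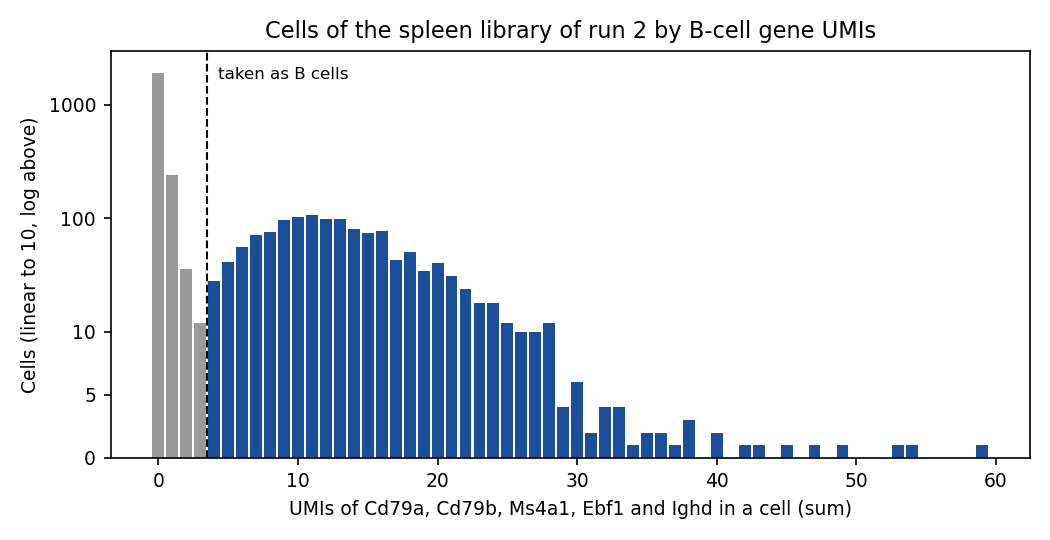
Number of cells of the spleen library of run 2 (vertical axis, linear up to 10 and log above) by the summed UMIs of the 5 B-cell genes of the rule (horizontal axis), for cells that met the other limits. The counts fall from 1921 cells with 0 UMIs to 12 with 3 UMIs, and most B cells lie well above the limit of 4.

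Against the other 3002 cells of the library, 1668 of the 9369 genes compared were at least 2-fold higher in the B cells (17.8%) and 1377 at least 2-fold lower (14.7%). Levels are given as CPM (counts per 1000000), the UMIs of a gene summed over a class of cells and divided by all UMIs of that class, without a correction for gene length, since each molecule is counted once at its end. They depend on what the other RNAs of a class add up to. The median gene was higher by 0.33 on the log2 scale in the B cells. Scaled by TMM, which sets the bulk of genes equal, that median was 0.03 and the counts were 935 higher and 1720 lower. The other cells included 104 that had 4 or more UMIs of the B-cell genes but missed another limit.

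The genes of the antigen receptor were high in the B cells. All 6 genes of the list were higher, with a median log2 fold of 3.66 beside 0.33 over all genes. Igkc, the constant region of the kappa light chain, stood at 24885 CPM (24683 to 25088) in the B cells, 309 in the T cells and 530 in the neutrophils. Ighm, the constant region of the IgM heavy chain, stood at 6489 CPM (6386 to 6593), 421 and 257. Both levels rest in good part on 6 cells with very high antibody RNA, described below: without these and 1 such cell among the other cells, the fold against the other cells was 7.36 for Igkc (9.14 with them) and 4.27 for Ighm (5.97 with them). Iglc1, a lambda constant region, was 18.1-fold higher, at 2043 CPM against 113. Of its 4777 UMIs in the B cells, 1413 came from 1 of those 6 cells, which had just 4 UMIs of the B-cell genes: at a limit of 6, where that cell counts among the others, the log2 fold of Iglc1 was 1.63 (4.18 at a limit of 4). Vpreb3, which escorts newly made receptor chains, was 14.7-fold higher, at 339 CPM (316 to 364) against 23.1.

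Of the 16 surface proteins and coreceptors, 14 were higher (median log2 fold 3.19) and 2, Cd24a and H2-Q7, were within 2-fold. The inhibitory receptors Cd22 and Siglecg stood at 186 CPM against 17.0 and at 520 CPM against 40.3. Fcer2a, which encodes CD23, the low-affinity IgE receptor of follicular B cells, was 14.5-fold higher, at 265 CPM (245 to 287) against 18.3. Cr2 stood at 162 CPM (146 to 179) against 15.9. Cd24a was at 354 CPM in the B cells, 24.0 in the T cells and 461 in the neutrophils, so the B cells were high against only one of the other large classes.

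At the level of single cells these receptors were seen in a minority, as low counts allow. Fcer2a had a UMI in 35.2% of the B cells and in 1.88% of the T cells, a class that should lack it and was deeper at a median of 2004 UMIs. With every cell thinned to 500 UMIs, which left no cell out, the shares were 13.8% and 0.312%. For Cr2 the shares were 21.2% and 0.625%, and 6.37% and 0.156% after thinning. The abundant RNAs also reached the T cells: Cd74 had a UMI in 48.9% of them and Igkc in 46.6%, and after thinning in 15.5% and 15.9%, beside 99.7% and 93.7% of the B cells. A single UMI of an abundant B-cell gene was thus no mark of a B cell in this library.

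**Figure D2:**
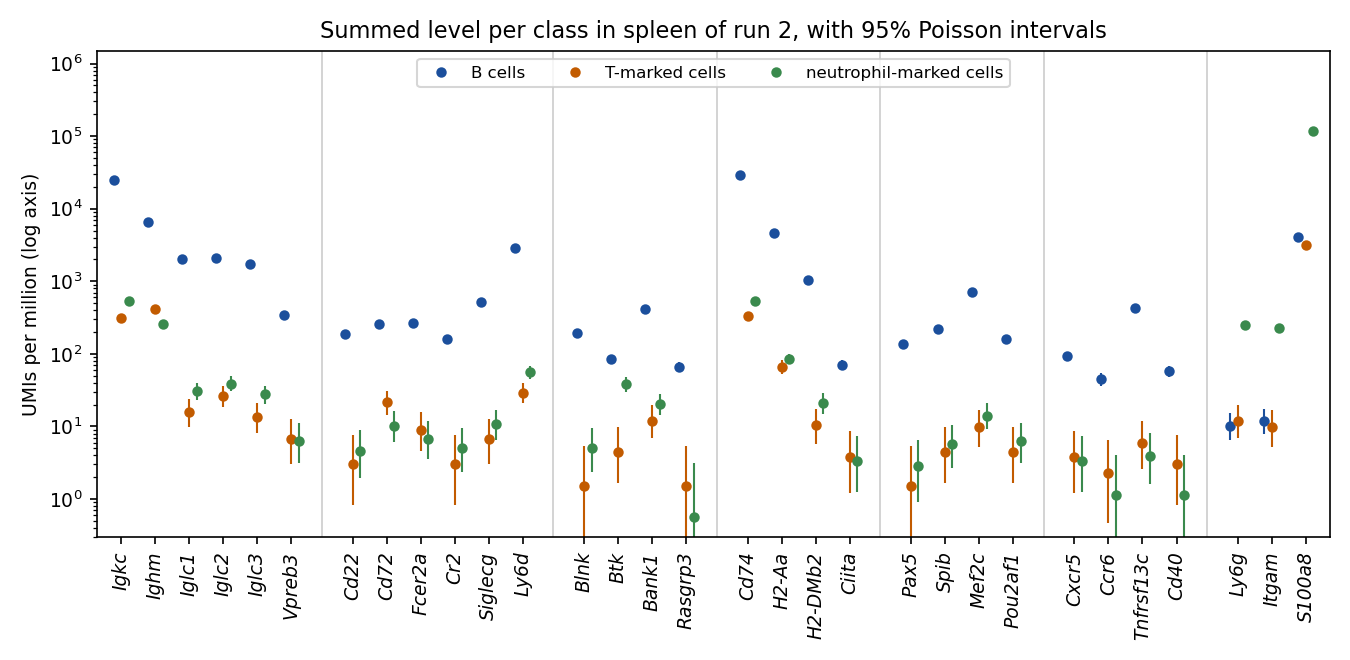
Levels of B-cell genes in CPM (log axis) in the B cells, the T-marked cells and the neutrophil-marked cells of the spleen library of run 2, with exact 95% Poisson intervals for counting error. Antigen receptor and MHC class II genes are highest in the B cells. S100a8, one of the genes that chose the neutrophils, is at 117645 CPM in them and 4122 in the B cells.

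Signalling genes downstream of the receptor divided by how widely they are used. Of 12 genes, 8 were higher than in the other cells (median log2 fold 2.11), or 7 under TMM scaling, and 11 were higher than in the T cells alone. Blnk, the adaptor that links the receptor to its kinases, was 12.9-fold higher, at 195 CPM against 15.1. Rasgrp3, an activator of RAS, was 19.1-fold higher, at 65.9 CPM against 3.45, and Bank1, a scaffold, 10.3-fold higher, at 412 CPM against 40.0. The kinases Lyn and Syk and the phosphatase Ptpn6 were within 2-fold of the other cells. Lyn stood at 199 CPM in the B cells, 11.3 in the T cells and 229 in the neutrophils. Vav1, an exchange factor common to blood cells, was at 64.2, 62.3 and 82.7 CPM and was the only one of the 12 within 2-fold of the T cells.

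All 10 genes of MHC class II antigen presentation were higher (median log2 fold 2.96), under TMM scaling as well. Cd74, the invariant chain, stood at 29188 CPM (28969 to 29408), against 334 in the T cells and 528 in the neutrophils. The chains H2-Aa and H2-Ab1 stood at 4602 and 5327 CPM against 593 and 688 in all other cells. H2-DMb2, a chain of the peptide exchange factor H2-DM, was 12.6-fold higher. Ciita, the transactivator of these genes, was 8.49-fold higher, at 69.7 CPM (59.4 to 81.3) against 8.22.

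Of 14 transcription factors of B cells, 13 were higher (median log2 fold 2.81), or 12 under TMM scaling. Pax5, the factor that holds B-cell identity, was 15.4-fold higher, at 135 CPM (120 to 150) against 8.75. Spib and Mef2c were 13.5- and 12.5-fold higher, at 219 and 711 CPM. Ets1 was the one within 2-fold, at 417 CPM in the B cells, 517 in the T cells and 30.0 in the neutrophils.

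Homing and survival receptors were mixed. Of 11 homing genes, 4 were higher and 1 lower (3 and 2 under TMM scaling). Cxcr5, the receptor that draws B cells into follicles, was 13.6-fold higher, at 93.7 CPM (81.7 to 107) against 6.89. Ccr6, another chemokine receptor, was 21.0-fold higher, at 44.5 CPM against 2.12. Ccr7, which guides lymphocytes to T-cell zones, was 2.04-fold higher at 237 CPM and stood at 268 CPM in the T cells. The bone marrow homing receptor Cxcr4 was lower at 41.1 CPM against 138, with the neutrophils at 224. Of 8 survival genes, 3 were higher and 1 lower (2 lower under TMM scaling). Tnfrsf13c, the BAFF receptor on which mature B cells depend, had the largest fold of all genes with at least 100 CPM outside the rule: 18.2-fold, at 429 CPM (402 to 456) against 23.6. Mcl1, of the BCL2 family, was lower at 182 CPM against 510, with the T cells at 128 and the neutrophils at 874.

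Genes were ranked by fold among those with at least 100 CPM that the rule did not use. The 15 of largest fold were Tnfrsf13c, Iglc1, Gm43291, Gm43603, Pax5, Ly6d, Vpreb3, Fcer2a, Sdc4, Pxdc1, Spib, Iglc3, Siglecg, Blnk and H2-DMb2, with folds down to 12.6. Ly6d stood at 2839 CPM (2771 to 2908) against 191. Gm43603 stood at 717 CPM against 45.1. The 10 of smallest fold by the same limits were Trbc1, Trbc2, Trac, Bcl11b, Lat, Gzma, Dapl1, Cd8b1, Chil3 and Nkg7, between 81.7- and 33.1-fold lower. Most of these are known from T cells or killer lymphocytes, while Chil3 is a gene of neutrophil precursors and macrophages. Gzma rested on 7 UMIs in the B cells and 9 in the T cells, too few together to compare these classes.

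Lists of other cell types were low in the B cells. All 14 neutrophil genes, all 14 T-cell genes, all 7 NK-cell genes compared and all 10 monocyte, macrophage and dendritic cell genes compared were lower than in the other cells. Of 5 erythroid genes compared, 1 was lower (3 under TMM scaling), and no platelet gene had the 20 UMIs needed. The rule kept out cells with 2 or more Cd3 UMIs, so the low T-cell genes were partly set by it. Of 12 cell cycle genes, 11 were within 2-fold, and Hmgb2 was lower (2 lower under TMM scaling). Of 12 immediate early genes, 0 were higher and 4 were lower (Fos, Junb, Dusp1 and Klf6), or 6 under TMM scaling, while against the T cells alone 0 were lower.

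Genes of B-cell subsets, compared with the other cells of the library, differed in how far other cells share them. Of 10 follicular genes, 8 were higher (7 under TMM scaling) and 0 lower, with Ighd, which the rule used, among those higher. Of 12 marginal zone genes, 5 were higher and 5 lower (4 and 5 under TMM scaling). Those lower included Cd9 and Marcks, both also high in the neutrophils, at 98.4 CPM against 1179 and at 95.8 CPM against 800. Of 7 plasma cell genes, 6 were higher, but 4 of 6 without the cells of very high Jchain. Of 6 germinal centre genes 2 were higher, Rgs13 among them, and 1 lower (Fas), and of 7 transitional genes 2 were higher and 1 lower. For both lists 2 were lower under TMM scaling. Only 1 of the 8 precursor genes, Il7r, had enough UMIs, and it was lower at 2.99 CPM against 90.1, with the T cells at 220.

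Neutrophil RNA was found in B cells and T cells at about the same low level. The neutrophils were chosen for at least 5% of UMIs from 14 neutrophil genes, so their own values for these genes are a description. The 14 neutrophil genes together held a median of 0.270% of UMIs in the B cells, 0.233% in the T cells and 18.7% in the neutrophils. In 88 B cells (6.51%, interval 5.26 to 7.96) they held at least 2%, as they did in 32 of the 640 T cells. Those 88 cells had a median of 1846 UMIs against 1418 in the others, and 77 of them were called doublets, 2 cells in 1 droplet, against 21 of the other 1263. Among the B cells under 2%, S100a8, a neutrophil alarmin gene, was at 1215 CPM, beside 1055 in the T cells under 2% and 117645 in the neutrophils. Camp, a granule protein, was at 56.5 CPM beside 47.5 in the T cells.

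RNA of the proteins used for the sort was close to absent in the B cells, and most neutrophils had no UMI of it either. Ly6g had 24 UMIs in 14 of the 1351 B cells (10.3 CPM, 6.58 to 15.3), against 250 CPM and a UMI in 208 of the 1899 neutrophils. Itgam had 28 UMIs in 26 B cells (12.0 CPM), against 229 CPM and a UMI in 349 of the neutrophils. In the cells under 2% of neutrophil RNA, each had 9 UMIs (4.20 CPM). The B cells were thus in a library sorted for 2 proteins whose RNA they hardly held. The part that droplets with 2 cells, free RNA or the sort played in this was not tested.

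**Figure D3:**
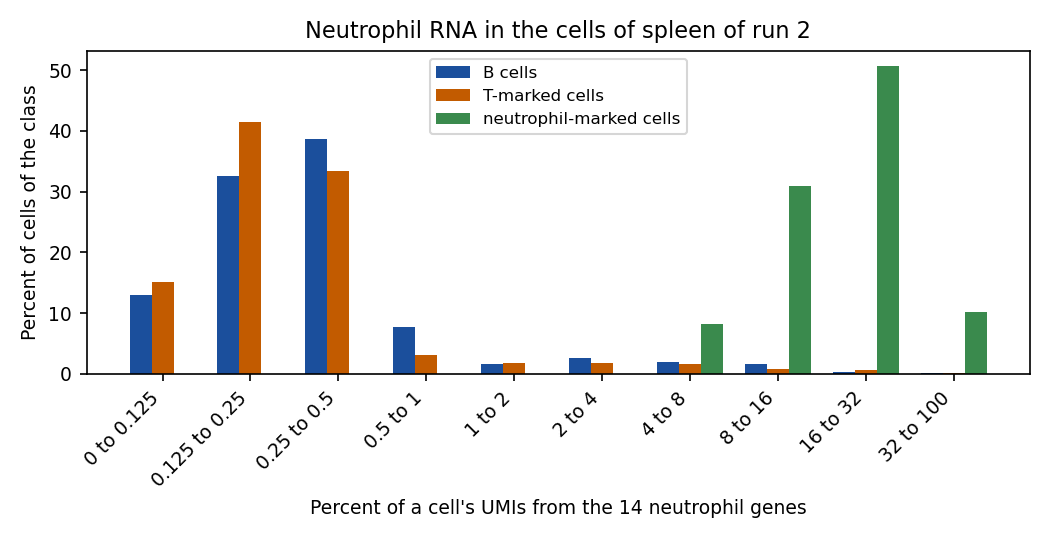
Percent of the B cells, T-marked cells and neutrophil-marked cells of the spleen library of run 2 (bars) by the percent of their UMIs that came from 14 neutrophil genes (ranges of unequal width). The medians are 0.270%, 0.233% and 18.7%, and 88 B cells lie at 2% or more. The neutrophil-marked cells were chosen for at least 5%.

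The light chain genes divided the B cells. The 3 lambda constant regions are related genes, and the sequences below show how alike the ends of their coding parts are. The last 60 coding bases of each are printed, 5′ to 3′ on the coding strand, from the minus strand of GRCm38 (mm10), with capitals at the 13 positions where the 3 genes differ. Iglc1 lies at chr16:19061755-19061814, Iglc2 at chr16:19198539-19198598 and Iglc3 at chr16:19065368-19065427 for these bases, all inside the constant region exon.
Iglc1: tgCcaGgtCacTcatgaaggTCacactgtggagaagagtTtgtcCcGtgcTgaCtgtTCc
Iglc2: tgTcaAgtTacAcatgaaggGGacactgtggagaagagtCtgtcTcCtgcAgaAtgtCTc
Iglc3: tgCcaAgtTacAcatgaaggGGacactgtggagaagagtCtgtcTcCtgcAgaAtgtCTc
In this stretch Iglc2 and Iglc3 differed at 1 base, while Iglc1 differed from Iglc2 at 13 and from Iglc3 at 12. Over the whole coding part, Iglc2 and Iglc3 were 96.5% identical (11 of 314 bases differed), and Iglc1 was 74.8% and 75.7% identical to them. Counts of Iglc2 and Iglc3 may share reads and are uncertain one by one, though which reads map to which gene was not tested and the bases beyond the coding part were not compared. Igkc, on chromosome 6, was 58.0 to 59.3% identical to the lambda genes.

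Igkc had a median of 19 UMIs in the B cells (0 to 10428), with 10 or more in 1116 cells and none in 42. In the T cells it reached 5 at most. Iglc1 was seen in 556 B cells and had 10 or more UMIs in 97 of them. In contrast, Iglc2 and Iglc3 had at least 1 UMI in 1133 (83.9%) and 1154 (85.4%) of the B cells, beside 34 (5.31%) and 18 (2.81%) of the 640 T cells. Most B cells thus held some RNA counted for these lambda genes, also when their main light chain was kappa.

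With at least 3 light chain UMIs, 1348 B cells could be classed. At 80% of light chain UMIs for 1 chain, 585 (43.4%, interval 40.7 to 46.1) were kappa, 98 (7.27%, 5.94 to 8.79) were lambda and 665 (49.3%) were mixed. The mixed cells held a median of 16 Igkc UMIs with 3 of Iglc2 and 3 of Iglc3. The lambda cells held a median of 1 Igkc UMI, with 16.5 of Iglc1, 4 of Iglc2 and 1 of Iglc3. When the limit was 90%, kappa cells were 14.3% and lambda cells 5.93% of the classed cells, so the kappa share moved with the limit far more than the lambda share.

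High counts of Iglc1 and of Iglc2 with Iglc3 met in some cells and not in others. Of the B cells, 78 had 10 or more Iglc1 UMIs and fewer than 20 of Iglc2 and Iglc3 together, and their median Igkc count was 2. Another 41 had 20 or more of Iglc2 and Iglc3 but fewer than 10 of Iglc1, with a median of 16 for Igkc. In 19 cells both were high and the median for Igkc was again 2. The other 1213 cells had a median of 20 for Igkc. At least 5 UMIs of Igkc were found in 35.9% of the 78 cells, 65.9% of the 41, 47.4% of the 19 and 97.6% of the other 1213, so low Igkc was more frequent in all groups of high lambda counts.

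**Figure D4:**
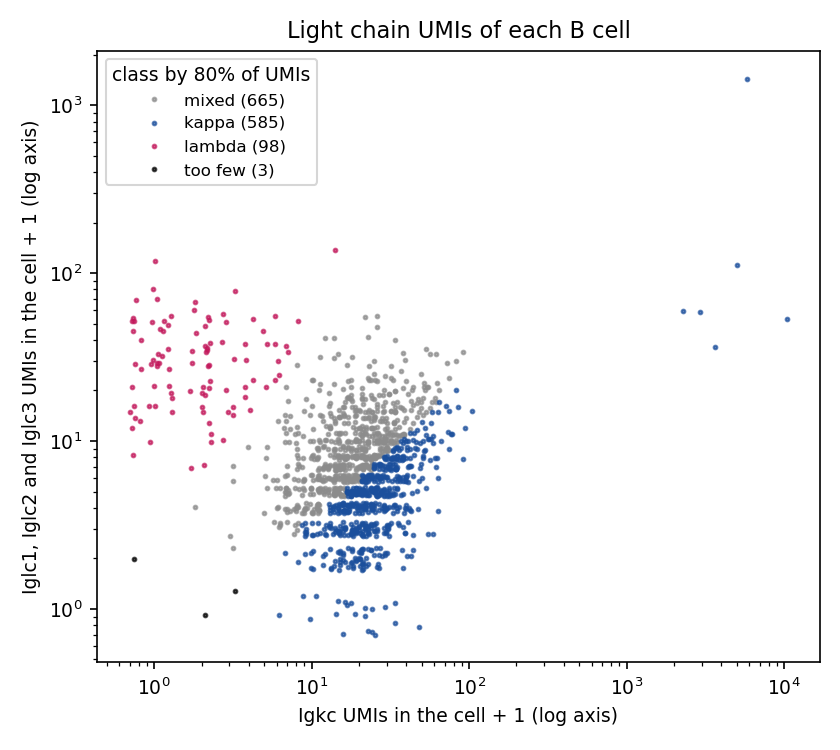
UMIs of Igkc against the summed UMIs of Iglc1, Iglc2 and Iglc3 in each B cell of the spleen library of run 2, on log axes of the count plus 1 with points shifted slightly to separate them, by light chain class. The 98 lambda cells have a median of 1 Igkc UMI, while the 665 mixed cells have UMIs counted for both, with neither at 80%.

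Antibody RNA was very uneven between cells because 6 cells, 0.444% of the B cells (0.163 to 0.964), held at least 100 UMIs of Jchain. Their Jchain counts were 1862, 1114, 1044, 812, 507 and 268, whereas the highest count in the other 1345 B cells was 14 and 1245 B cells had none. The 6 cells were chosen for Jchain, so its level in them is a description. They were the deepest B cells, with 7494 to 17964 UMIs, and antibody genes held 41.7 to 77.9% of their UMIs. Their Ighm counts ran from 770 to 1987, and their Ighd counts were 0 or 1. With 2.95% of all UMIs of the B cells, they held 96.7% of the Jchain, 54.5% of the Ighm, 51.8% of the Igkc and 31.6% of the Iglc1 UMIs.

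Summed over these 6 cells, genes of the secretory pathway were high. Xbp1, the factor that expands the endoplasmic reticulum of plasma cells, stood at 1190 CPM against 110 in the other B cells. Txndc5 and Derl3, which fold and clear proteins there, stood at 986 against 136 and at 203 against 4.85. Mzb1, a chaperone of IgM assembly, stood at 2481 against 532, but unevenly. Its counts were 6, 5, 2, 11, 52 and 95 in order of falling Jchain, so the cells of lowest Jchain carried most of it. Prdm1, the factor that ends the B-cell program, had no UMI. Sdc1, the plasma cell surface protein CD138, had 10 UMIs in 3 of them. Since antibody RNA took up so much of their UMIs, CPM lowers their other genes, and UMIs per cell are also given. These counts make no allowance for depth, and the 6 cells were deeper (median 10429 UMIs against 1436 in the other B cells). Neither measure shows by itself whether a gene changed. Cd74 had 43 to 78 UMIs per cell, beside a median of 48 over all B cells, though as CPM it stood at 4990 against 29923. H2-Aa had 8 UMIs in 4 of the 6 cells together, beside a median of 7 in each B cell, and stood at 116 CPM against 4739. Among genes of the rule, Cd79a had 1 to 9 UMIs per cell beside a median of 4, and Ms4a1 had 0 to 3 beside a median of 2. Ly6c2, a surface protein also known from monocytes, was at 1262 CPM against 22.5 and was seen in 4 of the 6. All values of this kind compare 6 cells of 1 library.

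Jchain at low counts was no mark of these cells. It had a UMI in 7.85% of the B cells and in 7.50% of the T cells. Without the 6 cells, and the 1 such cell outside the B cells, Jchain was 1.08-fold higher in the B cells than in the other cells (8.58-fold with them).

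Switched heavy chains were rare. Igha, of IgA, had 29 UMIs in 22 B cells and none in the other cells of the library, at least 15.6-fold higher. Ighg1, of IgG1, had 32 UMIs in only 4 B cells, up to 13 in 1 cell, and 1 UMI in all other cells. Ighg2b had 36 UMIs in 10 B cells, up to 11 in 1 cell, against 5 UMIs in the other cells. Ighg3 had 10 UMIs in 6 B cells. Ighm, in contrast, had a UMI in 95.8% of the B cells and Ighd in 64.9%, though Ighd helped to choose them.

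Cr2 and Fcer2a, which mark marginal zone and follicular B cells, split 4 groups. A UMI of Cr2 without Fcer2a was found in 177 cells (13.1%), Fcer2a without Cr2 in 366 (27.1%), both in 109 (8.07%) and neither in 699 (51.7%). Cells with neither had the lowest median depth, 1377 UMIs, and those with both the highest, 1750. The cells with Cr2 alone and those with Fcer2a alone had medians of 1675 and 1435 UMIs. A cell without a UMI of a gene may still express it, so these are groups by detection and not cell types.

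Between the cells with Cr2 alone and those with Fcer2a alone, 121 of 4855 genes (2.49%) were at least 2-fold higher and 225 (4.63%) at least 2-fold lower. Of 10 marginal zone genes compared beside Cr2, 7 were higher and 0 lower, with a median log2 fold of 1.25 beside -0.05 over all genes. Dtx1, a regulator of NOTCH signalling, the pathway that marginal zone B cells need, stood at 138 CPM (103 to 182) against 36.6 (22.9 to 55.4). Cd9, a tetraspanin, stood at 127 CPM against 46.6, Plac8 at 1124 against 477 and Dph5 at 160 against 66.5. Cd9 was also high in the cluster of 112 cells with neutrophil RNA described below, at 447 CPM against 57.4 in the other B cells. Cells of that cluster were not left out here. Cd1d1, which presents lipids, stood at 89.4 CPM against 43.2. Rgs10, a brake on G-protein signalling, was 8.47-fold higher at 70.4 CPM against 8.32. Mzb1 was within 2-fold, at 677 CPM against 452.

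Of the 9 follicular genes beside Fcer2a, 2 were lower in the cells with Cr2 alone and 0 higher, with a median log2 fold of -0.62. Ccr7 was 2.68-fold lower, at 111 CPM against 298. Klf2, which governs exit and recirculation of lymphocytes, was 2.53-fold lower, at 672 CPM against 1702. Ighd was at 580 CPM against 880, and Ighm at 2722 against 3127. When each cell was thinned to 1000 UMIs, with 134 and 278 cells left in the groups, the median of the 7 marginal zone genes that could be compared was 0.94. Between the Leiden cluster with most Cr2 (the 101 cells led by Srm, described next) and that with most Fcer2a (226 cells), the median was 0.49, under a 2-fold difference. Both groups came from 1 library, and no replicate stands behind these values.

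Clustering of the B cells alone, without the variable antibody genes and the light chains, gave 7 clusters of 374, 340, 226, 177, 112, 101 and 21 cells. Their leading genes come from the cells that were clustered and are given as a description. In the cluster of 340 cells Ccr7 was at 522 CPM against 166 in the other B cells, and Klf2 at 2180 against 1237. In the cluster of 177 cells Vpreb3 was at 801 CPM against 266, Cd24a at 682 against 302 and Sox4 at 65.7 against 21.8, while Marcksl1, of the same transitional list, was lower at 40.7 against 131. The interferon-induced genes Ifi47, Zbp1 and Bst2 were among its leading genes. The cluster of 101 cells had Srm, of polyamine synthesis, among its leading genes, at 293 CPM against 28.2, with Myc at 142 against 23.5 and Ccnd2, a G1 cyclin, at 416 against 78.1. In the cluster of 112 cells, 10 of the 12 fixed neutrophil markers were at least 2-fold above the other B cells and seen in at least 10% of its cells. The 14 neutrophil genes held a median of 3.54% of its UMIs, and 97 of the 98 B cells called doublets were in it.

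The cluster of 21 cells was germinal centre-like: 5 of the 7 markers fixed for that state were detected above the other B cells. Rgs13, a regulator of chemokine signalling, was seen in 9, at 325 CPM against 16.1. S1pr2, which confines cells to the germinal centre, was seen in 8, Fas in 7 and Gcsam in 6. Genes of division went with them: Stmn1 in 20 of the 21 cells at 1689 CPM against 28.3, Top2a at 427 against 3.59 and Mki67 in 11 cells at 204 against 2.69. A median of 8 of the 12 cell cycle genes had a UMI in these cells, against 1 in the other B cells, though they were also deeper, with a median of 4693 UMIs. Ighd was seen in 6 of them.

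These 21 cells held 74.3% of the Stmn1 UMIs of the B cells. Of all B cells, 20 had UMIs of 2 or more of the 8 germinal centre genes, and 15 of those were in the cluster. Of the 640 T cells, 0 had a UMI of Rgs13. At 3 counts, that allows up to 0.469% of cells with a UMI, not of cells that express the gene.

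B cells chosen by the same rule in bone marrow and blood of run 2 gave a comparison of tissues, with 1 library for each. Against bone marrow, 630 of 7982 genes (7.89%) were at least 2-fold higher in spleen and 795 (9.96%) at least 2-fold lower, and 861 and 577 under TMM scaling, which moved the median gene from -0.11 to 0.10 on the log2 scale. Against blood, 967 of 7481 genes (12.9%) were higher and 516 (6.9%) lower, but with a filter of 10 UMIs in place of 20 the lower genes were 1308 beside 967 higher. The 99 blood B cells were few: of the 967 genes, 824 (85.2%) had 3 or fewer UMIs in them, and of the 630 genes higher than in bone marrow 285 (45.2%) did. Neutrophil RNA moved with tissue: at least 2% of UMIs came from neutrophil genes in 6.51% of the spleen B cells, 23.9% of those of bone marrow (68 of 285) and 32.3% of those of blood (32 of 99).

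Against bone marrow, the spleen B cells were higher in genes of mature cells. Of 10 MHC class II genes, 9 were higher and 0 lower, with a median log2 fold of 1.49 (all 10 under TMM scaling). Cd74 stood at 29188 CPM in spleen, 10313 in bone marrow and 26806 in blood, and H2-Aa at 4602, 1441 and 4437. Of 10 follicular genes, 8 were higher than in bone marrow, with a median of 1.60, Ighd of the rule included. Fcer2a stood at 265 CPM (245 to 287) in spleen, 78.1 (57.4 to 104) in bone marrow and 251 (184 to 334) in blood. Of 11 homing genes 7 were higher than in bone marrow. Cxcr5, for example, stood at 93.7, 26.6 and 155 CPM. For MHC class II and follicular genes, spleen and blood were close: 0 of 10 and 0 of 10 differed by 2-fold, with medians of 0.14 and -0.15 beside 0.11 over all genes.

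Genes of B-cell precursors were lower in spleen. All 6 compared with bone marrow were at least 2-fold lower. Igll1 and Vpreb1, which make the surrogate light chain of the pre-B cell receptor, each had 237 UMIs in 28 bone marrow B cells, 25 of them the same cells. In the spleen B cells Igll1 had none, at least 307-fold lower, and Vpreb1 had 3. Dntt, the enzyme that adds bases at antibody gene joins, had 90 UMIs in bone marrow and none in spleen, at least 117-fold lower. Rag1, of the recombinase, had 42 UMIs in bone marrow and 4 in spleen. Il7r, the receptor for interleukin 7, was 47.2-fold lower in spleen, at 2.99 CPM against 141. Among genes with at least 100 CPM outside the rule, the others of smallest fold were Myb, a factor of precursors, 32.0-fold lower, and Cplx2, 26.3-fold lower. The neutrophil genes Chil3, Camp, Ngp and Ltf were also among them.

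The transitional genes were lower in spleen than in bone marrow for 5 of 7 (median log2 fold -2.15). Vpreb3 stood at 339 CPM in spleen, 2420 in bone marrow and 262 in blood. Sox4 stood at 27.8 CPM in spleen, 577 in bone marrow and 16.0 in blood, where it rested on 3 UMIs. All 12 cell cycle genes were lower in spleen than in bone marrow (median -3.09). Stmn1 stood at 105 CPM in spleen and 851 in bone marrow, and had 1 UMI in blood.

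Cr2 had its highest level in the spleen library. It stood at 162 CPM (146 to 179) there, at 11.6 (4.68 to 24.0, 7 UMIs) in bone marrow and at 42.7 (18.4 to 84.2, 8 UMIs) in blood. The fold was 13.9 against bone marrow and 3.80 against blood. Cr2 had a UMI in 21.2% of spleen, 1.75% of bone marrow and 8.08% of blood B cells, and in 6.37%, 1.05% and 2.02% of them in 1 random draw of 500 UMIs per cell. Of 11 marginal zone genes compared, Cr2 included, 4 were higher than in bone marrow and 3 higher than in blood, with 0 and 1 lower. Over all genes compared, 7.89% and 12.9% were higher. The median log2 fold of the list was 0.21 against bone marrow and 0.43 against blood, beside -0.11 and 0.11 over all genes. Cd9 was lower in spleen than in blood, at 98.4 against 342 CPM, but it is also high in neutrophils. At least 2% of UMIs came from neutrophil genes in 32.3% of the blood and 6.51% of the spleen B cells. The part this played in the Cd9 levels was not tested.

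**Figure D5:**
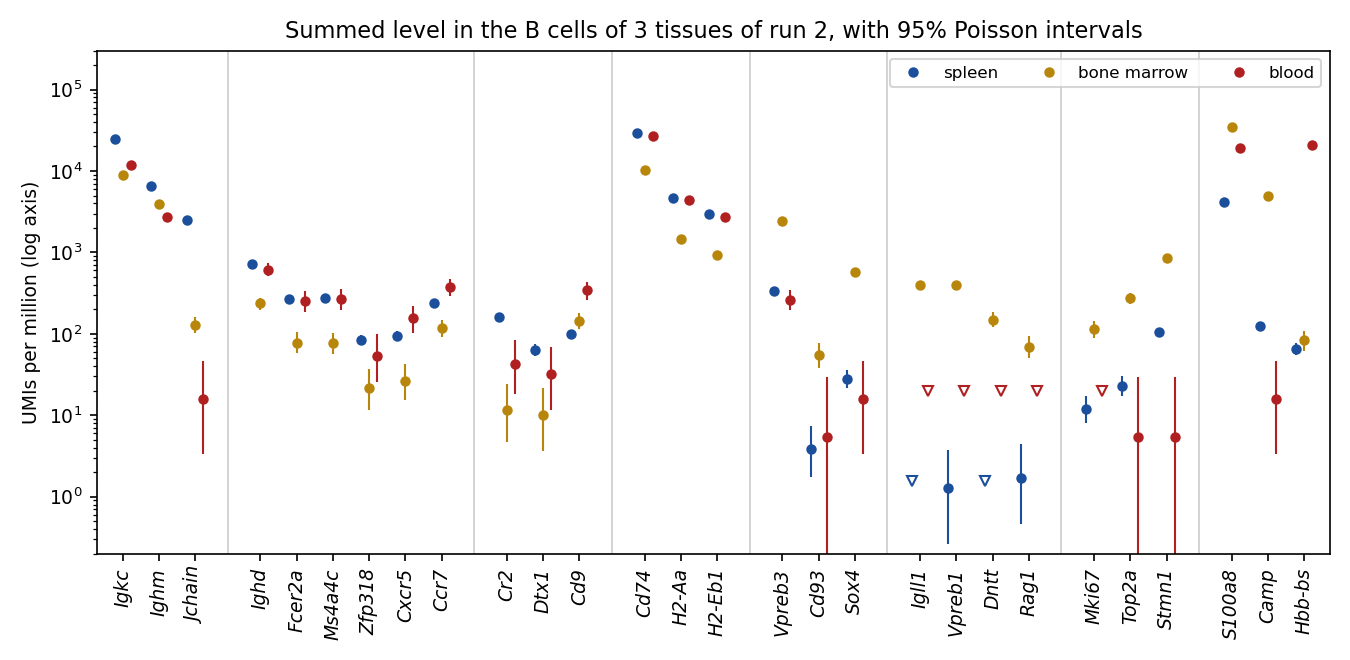
Levels in CPM (log axis) of selected genes in the B cells of spleen (1351 cells), bone marrow (285) and blood (99) of run 2, with exact 95% Poisson intervals for counting error and open triangles at the upper limit of genes with no UMI. Cr2 is highest in spleen, MHC class II genes are lowest in bone marrow, and Vpreb3 and Sox4 are highest there.

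The other genes of largest fold against bone marrow among those with at least 100 CPM were Pxdc1, Ly6a, Fcrl1, Gimap7, Cd83, Gimap3, Ms4a4c and March1, between 4.19- and 3.55-fold higher in spleen. Jchain led both tissue comparisons. It had 78 UMIs in 2 bone marrow B cells and 3 UMIs in 1 blood B cell, against 5796 UMIs in 106 spleen B cells. Without the cells of at least 100 Jchain UMIs, Jchain was 1.56-fold lower in spleen than in bone marrow. That direction rests on 1 bone marrow cell with 77 of the 78 UMIs, which the cut left in. Igkc went from 2.78-fold to 1.38-fold higher than in bone marrow. Against blood, Igkc and Ighm went from 2.12- and 2.39-fold to 1.05- and 1.12-fold. The 2-fold differences of Igkc and Ighm between tissues thus rested on 6 cells. Jchain without them still stood at 83.3 CPM in spleen against 16.0 in blood, the latter on 3 UMIs.

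Against blood, haemoglobin and some immediate early genes were lower in the spleen B cells. Of 12 immediate early genes, 5 were lower, 1 was higher and 6 were within 2-fold. Dusp1 stood at 111 CPM in spleen, 48.2 in bone marrow and 465 in blood, and Cd69, an early activation marker, at 64.6, 48.2 and 176. All 6 erythroid genes compared were lower than in blood (median log2 fold -7.71). Hba-a1 stood at 28.2 CPM in spleen and 12439 in blood, and 11 of 14 neutrophil genes were lower in spleen, with S100a8 at 4122 against 19060 CPM. Among genes with at least 100 CPM outside the rule, those of largest fold against blood after Jchain were Ddit4 and Stmn1, each with 1 UMI in the blood B cells. Gm26917, Camp, Alyref, Cr2, Nucks1, Ccnd2 and Bcl11a came next. Ccnd2 stood at 109 CPM in spleen and 32.0 in blood (6 UMIs), and Bcl11a, a transcription factor of B cells, at 231 and 80.1 (15 UMIs). Those of smallest fold after the haemoglobin genes and Alas2, of haem synthesis, were Il1r2, Sirpb1b, Il1f9, Myadm and Gda, between 6.97- and 6.38-fold lower in spleen. Without the cells of at least 2% neutrophil RNA, 3 immediate early genes were lower and 0 higher, and Fos was within 2-fold of blood. How far RNA from other cells carried these differences was not tested.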

How the data were processed

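Per the labels and the study's methods, the authors mapped 10X reads to mm10 and deposited raw UMI counts per gene and cell, made with Cell Ranger 1.2.0 in run 1, 2.1.0 in run 2 and 3.0.2 in the inflammation library. The deposited counts were used as they were. The run 1 tables hold fewer genes: Ighd and the antibody constant genes were not used there. The rule for the B cells, the 26 gene lists and the comparisons were chosen with earlier results of these data known.

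UMIs were summed per class of cells and given as CPM with exact Poisson intervals, and shares with exact Clopper-Pearson intervals (95%), for counting error only. Genes with at least 20 UMIs over both classes were compared. A gene with no UMI in 1 class, and a share of 0 cells, was given a limit of 3 counts. T-marked cells had 2 or more Cd3 UMIs, fewer than 4 of the B-cell genes and met the mitochondrial limit, and neutrophil-marked cells met these limits on B- and T-cell genes and had at least 5% of UMIs from 14 neutrophil genes. Named genes were members of the lists, plus the 15 of largest and 10 of smallest fold against the other cells and the 10 of each against each tissue. These were taken among genes of at least 100 CPM that the rule did not use. Cells with high Jchain, Iglc1 or Iglc2 and Iglc3 counts and the cluster of 21 cells were singled out after their values were seen. Scrublet, at an expected share of 6%, called 170 of the 4353 cells doublets, 98 of them B cells, which were kept. B cells were clustered by Leiden at resolution 0.6 on 15 components and 15 neighbours. Sequences came from GRCm38 with the GENCODE annotation. Scripts were tested on simulated data. Python 3.11.15, scipy 1.17.1, scanpy 1.11.5, leidenalg 0.10.2, Biopython 1.88 and edgeR 4.0.16 (TMM only) in R 4.3.3 were used.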

Additional observations from a re-analysis of the deposited data

Results flagged for a closer look

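Cells that met the rule for B cells were also found in the libraries of run 1, which the comparisons above did not use: 19 of 1588 in blood, 6 of 1271 in bone marrow and 11 of 1219 in spleen. They drew attention as a signal in data outside the main measurement, and they were chosen there without Ighd, and in bone marrow also without Ms4a1, Cd3e and Cd3g, which those tables do not list, so the rule differed from that in run 2. In the 11 spleen cells Cd74 was at 26480 CPM and Ly6d at 3266 CPM, with S100a8 at 64000 CPM. In the 19 blood cells Cd74 was at 28016 CPM and Ly6d at 3682 CPM, and in the 6 bone marrow cells at 1279 and 270 CPM. The spleen library of run 1 thus held B cells at 0.902% of its cells, against 31.0% in run 2, and the cause was not tested.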

How the results depend on the processing

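No paired analysis was possible because the comparisons used 1 library per tissue, from run 2, and no result comes from a test. Within a run all tissues were taken from 1 set of mice, but the libraries of run 1 held 6 to 19 B cells, found with fewer genes of the rule. The number of B cells was 1282 at 6 or more UMIs of the B-cell genes, 1441 with no mitochondrial limit and 1253 without called doublets. The 1668 genes higher than in the other cells became 3106 with each cell weighted equally, 1045 against T cells only, 3281 against the other cells without T cells and 935 under TMM scaling. The 1377 lower genes became 618 against T cells only. The 516 genes lower than in blood became 1308 with a filter of 10 UMIs. At a limit of 90%, kappa cells were 14.3% and lambda cells 5.93%. The median log2 fold of the marginal zone genes was 0.94 in cells thinned to 1000 UMIs, and 0.49 between the cluster with most Cr2 and that with most Fcer2a. Of the 25 genes named for largest or smallest fold against the other cells, 24 kept the call under all alternatives tried for them. The filters on low counts cannot change these genes. The exception was Gzma, which had too few UMIs to be compared with T cells only. Leaving out a replicate was not possible. Depth limits genes of few UMIs in the 99 blood B cells most.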

Other observations

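Genes of B-1 cells, innate-like B cells best known from body cavities, were sparse in the B cells of spleen. Bhlhe41, a transcription factor of these cells, had 39 UMIs in 27 B cells, at 16.7 CPM (11.9 to 22.8) against 1.59 in the other cells of the library. Cd5, their usual surface marker, which T cells also carry, had 5 UMIs in 5 B cells, at 2.14 CPM, against 74.3 in the T cells. Zcwpw1 had 21 UMIs in 20 B cells, and Zbtb32 had 4 UMIs. Bhlhe41 stood at 16.7 CPM in the B cells of spleen and, on few UMIs, at 13.3 in those of bone marrow and 37.4 in those of blood.

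Fcmr, the receptor for IgM, had a UMI in 60.2% of the B cells and 2.03% of the T cells. It stood at 673 CPM (640 to 707) in the B cells of spleen, 293 (251 to 339) in those of bone marrow and 662 (551 to 789) in those of blood.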
